A study of Mus musculus with 8 samples.

Results

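The collagen gene family was followed in the corneas of mice with dry eye. Its members were taken as every gene whose symbol has the form of Col, a number, a and a number (such as Col1a1), and 44 of the 23597 genes in the deposited table met this rule. Of these 44 genes, 28 passed a minimum mean of 0.5 FPKM (fragments per length of gene and per depth of library) over the 8 libraries and were tested. The ICI group held 4 libraries from mice given scopolamine together with ICI 118551, which blocks the β2-adrenergic receptor. The group Scop held 4 libraries from mice given scopolamine, a muscarinic antagonist that reduces tear production, without ICI 118551. Corneas of both groups were taken on day 14 of the scopolamine injections, and each library came from 4 pooled corneas. The sources used here give no strain, age or dose, and do not say whether the pools of a group came from separate cages or days. P-values therefore measure only the spread between these libraries. All libraries came from mice given scopolamine, so ICI is set against dry eye without ICI 118551 and not against a normal cornea.

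Collagens are matrix proteins of 3 chains wound into a triple helix, and each gene encodes 1 chain. Fibrillar collagens, chiefly types I and V, build the regularly spaced fibrils of the corneal stroma and are made there by keratocytes. FACIT collagens such as type XII sit on the fibril surface, and type VI forms beaded filaments between fibrils. Type IV forms the network of basement membranes, and type VIII forms the lattice of Descemet's membrane, which the corneal endothelium lays down. Types VII and XVII are made by the epithelium: type VII forms the anchoring fibrils below its basement membrane, and type XVII is a transmembrane protein of hemidesmosomes.

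Collagen transcripts took between 0.530% and 0.696% of the recovered fragments in ICI libraries, and between 0.383% and 0.630% in Scop libraries. Col17a1 was the most abundant member, and the transmembrane class that holds it made up 41.9% of the family's summed FPKM. Fibrillar collagens made up 28.2%, the type VI filament chains 16.2%, short-chain network collagens 5.42%, FACIT collagens 4.93% and the type IV chains 2.60%. No collagen gene passed an adjusted p under 0.05 between ICI and Scop (limma on log2(FPKM + 1), Benjamini-Hochberg over all 12100 genes tested). The background share of all genes called was 0.0% in each direction. By the unadjusted p, with the same threshold of 0.05, again 0 of 28 collagen genes passed, against a background of 4.56% of all genes higher and 7.46% lower in ICI. Limma-voom on fragments recovered from the FPKM steps also gave 0 of 28, adjusted and unadjusted. Of all 12044 genes in that fit, 0 passed the adjusted threshold, and 4.28% were higher and 7.71% lower by the unadjusted p. The sizes of the collagen gene differences below are therefore descriptions, since none of them passed these tests.

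A library of the Scop group, replicate 3, was singled out with its low stromal transcripts already known from earlier results of these data. Scop replicate 3 had the fewest recovered fragments, 34354346, though Scop replicate 4 was close at 35907266 and the other libraries had up to 39885822. It also had low transcripts of keratocytes, the stromal cells of the cornea. Kera, a proteoglycan of these cells, stood at 249, 211, 196 and 164 FPKM in ICI replicates 1 to 4 and at 184, 163, 39.0 and 169 FPKM in Scop replicates 1 to 4. The summed FPKM of 12 keratocyte markers was 1762 to 2298 in ICI and 678 to 1989 in Scop, with the 678 in Scop replicate 3, and none of the 12 was at 0 in all libraries. Of the 11 markers tested, 7 stood in that library below 0.5 times the mean of the other 3 Scop libraries. In pooled tissue, fewer keratocytes and less RNA per keratocyte cannot be told apart. The level of Krt12, a keratin of corneal epithelial cells, lay between 15370 and 16250 FPKM in ICI and between 15150 and 18410 FPKM in Scop. Most markers of the conjunctiva, the neighbouring surface tissue, were high in Scop replicate 3. The 4 conjunctival keratins tested, of a list of 5 markers, summed to 1199 to 1263 FPKM in ICI and 1119 to 1862 FPKM in Scop, with the 1862 in that library. Krt13, Krt4 and Krt19 stood there at 1.56, 1.49 and 1.39 times the mean of the other Scop libraries and Krt8 at 0.821 times. All 4 had a negative log2 fold change between ICI and Scop (median -0.33, lowest limma adjusted p 0.342), and 3 of 4 had one without Scop replicate 3 (median -0.19). Krt14, a keratin of basal epithelial cells, stood at 316, 233, 238 and 273 FPKM in ICI replicates 1 to 4 and at 203, 268, 553 and 415 FPKM in Scop replicates 1 to 4. Krt14 stood in Scop replicate 3 at 1.87 times the mean of the other Scop libraries. That was the highest ratio of 10 corneal epithelial markers, whose median was 1.09. The keratins Krt15 and Krt5 stood there at 1.365 and 1.08 times. The part of these keratin transcripts in the collagen values was not tested. Collagen differences between the groups are given with and without Scop replicate 3.

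Promoter windows show what the genes that the results turn on share besides their expression. Each window below holds 250 bases before the transcription start and 50 after it, 5′ to 3′ on the gene's own strand, from RefSeq on GRCm38.p6, the build of the deposited values (mm10). Capitals mark 3 motifs searched on both strands: the CCAAT box (CCAAT or ATTGG), the TATA box (TATAAA or TTTATA) and the GC box (GGGCGG or CCGCCC). Among all 32851 promoter windows of this length, 37.4% hold a CCAAT box, 13.6% a TATA box and 35.7% a GC box. Overlapping GC boxes are each counted, and no motif overlaps another kind. Col4a1 (chr8:11312777-11313076, minus strand) and Col4a2 (chr8:11312555-11312854, plus strand) encode the commonest chains of type IV collagen. They are shown because their starts lie 21 bases apart on opposite strands, head to head, so that the windows share 78 bases.
Col4a1: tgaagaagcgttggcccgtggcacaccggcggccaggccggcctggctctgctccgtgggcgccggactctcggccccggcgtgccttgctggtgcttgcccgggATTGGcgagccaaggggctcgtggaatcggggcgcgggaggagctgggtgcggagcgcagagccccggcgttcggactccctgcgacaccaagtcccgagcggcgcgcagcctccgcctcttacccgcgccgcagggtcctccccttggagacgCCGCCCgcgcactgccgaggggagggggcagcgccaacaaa
Col4a2: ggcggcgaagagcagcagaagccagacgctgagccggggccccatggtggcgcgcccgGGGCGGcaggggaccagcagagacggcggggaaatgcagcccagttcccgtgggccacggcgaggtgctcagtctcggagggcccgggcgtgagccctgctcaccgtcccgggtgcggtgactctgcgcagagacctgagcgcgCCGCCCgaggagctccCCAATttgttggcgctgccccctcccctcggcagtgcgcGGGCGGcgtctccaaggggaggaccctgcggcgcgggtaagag
Col8a1 (chr16:57754688-57754987, minus strand) and Col8a2 (chr4:126286544-126286843, plus strand) encode the chains of type VIII collagen on separate chromosomes. They are shown because both were high in the same ICI library.
Col8a1: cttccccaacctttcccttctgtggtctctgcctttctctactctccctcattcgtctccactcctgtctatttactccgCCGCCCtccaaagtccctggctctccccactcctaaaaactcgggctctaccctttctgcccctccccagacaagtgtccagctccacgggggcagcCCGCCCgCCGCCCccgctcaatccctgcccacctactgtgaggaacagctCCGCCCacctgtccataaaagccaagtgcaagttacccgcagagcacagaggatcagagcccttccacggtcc
Col8a2: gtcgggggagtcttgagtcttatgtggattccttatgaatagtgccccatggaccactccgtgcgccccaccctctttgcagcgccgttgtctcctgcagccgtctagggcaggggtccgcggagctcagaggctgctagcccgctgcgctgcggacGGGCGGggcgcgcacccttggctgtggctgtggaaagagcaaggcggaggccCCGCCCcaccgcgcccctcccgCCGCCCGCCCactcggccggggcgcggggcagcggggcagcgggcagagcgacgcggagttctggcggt
Col1a2 (chr6:4505368-4505667, plus strand) and Col17a1 (chr19:47691993-47692292, minus strand) are shown as the most abundant stromal and epithelial members. Their levels in Scop replicate 3 were 0.348 and 1.08 times the mean of the other Scop libraries, in that order.
Col1a2: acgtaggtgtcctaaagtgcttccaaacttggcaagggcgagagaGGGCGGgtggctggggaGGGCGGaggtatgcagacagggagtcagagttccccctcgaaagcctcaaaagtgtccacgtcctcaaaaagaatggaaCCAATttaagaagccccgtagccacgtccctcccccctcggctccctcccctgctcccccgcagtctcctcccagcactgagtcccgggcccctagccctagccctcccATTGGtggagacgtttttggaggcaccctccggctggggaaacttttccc
Col17a1: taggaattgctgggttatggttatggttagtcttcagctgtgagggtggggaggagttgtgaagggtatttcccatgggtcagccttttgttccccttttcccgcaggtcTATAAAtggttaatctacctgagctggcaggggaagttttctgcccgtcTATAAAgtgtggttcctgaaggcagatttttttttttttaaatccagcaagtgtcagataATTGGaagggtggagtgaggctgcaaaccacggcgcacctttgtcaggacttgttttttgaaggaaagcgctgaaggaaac
The Col4a1 and Col4a2 windows each hold 1 CCAAT box, and they hold 1 and 3 GC boxes in that order. Both type VIII windows hold 4 GC boxes and no CCAAT or TATA box in these letters. The Col1a2 window holds 2 CCAAT boxes and 2 GC boxes. The Col17a1 window holds 2 TATA boxes, 1 CCAAT box and no GC box in these letters. A RefSeq window was matched for 35 of the 44 collagen genes, 38 windows in all, of which 13 hold a CCAAT box, 5 a TATA box and 23 a GC box. The matches are letters in a window and were not tested as binding sites.

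Among fibrillar collagens, Col1a2 and Col1a1, the chains of type I collagen, had log2 fold changes of similar size. Col1a2, the α2 chain of type I collagen (chromosome 6, 4505618 to 4541543, RefSeq on GRCm38.p6, as for all gene positions), stood at 211, 173, 147 and 133 FPKM in ICI replicates 1 to 4. In Scop replicates 1 to 4 it stood at 163, 119, 49.3 and 143 FPKM. Scop replicate 3 was far below all other libraries, and the rest of Scop overlapped ICI. The mean was 166 ± 34.4 FPKM in ICI and 119 ± 49.6 FPKM in Scop (SD, n = 4 each), a log2 fold change of 0.59 (SE 0.32, limma adjusted p = 0.497). Leaving out Scop replicate 3, the Scop mean was 142 ± 22.1 FPKM (SD, n = 3) and the log2 fold change 0.22 (limma adjusted p = 0.553).

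Col1a1, the α1 chain of type I collagen (chromosome 11, 94936224 to 94953042), stood at 137, 112, 97.0 and 78.1 FPKM in ICI replicates 1 to 4 and at 104, 75.4, 36.7 and 88.2 FPKM in Scop replicates 1 to 4. Its order of libraries was close to that of Col1a2, with Scop replicate 3 lowest and ICI replicate 1 highest. The log2 fold change was 0.54 (SE 0.29), and its adjusted p of 0.487 was the smallest of the 28 collagens by limma. It was 0.23 without Scop replicate 3 (limma adjusted p = 0.574). The type V chains, which set fibril diameter, lay lower in level. Col5a2 averaged 18.6 ± 2.93 FPKM in ICI and 14.95 ± 5.60 FPKM in Scop, and Col5a1 averaged 12.6 ± 1.98 FPKM in ICI and 10.7 ± 2.82 FPKM in Scop (SD, n = 4 each). Their log2 fold changes were 0.38 and 0.24, and 0.056 and 0.046 without Scop replicate 3.

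Col24a1, a fibrillar collagen of low level in the cornea (chromosome 3, 145292472 to 145552013), was the 1 tested collagen whose groups did not overlap. It stood at 0.650, 0.867, 0.630 and 0.669 FPKM in ICI replicates 1 to 4 and at 0.622, 0.597, 0.223 and 0.528 FPKM in Scop replicates 1 to 4. The lowest ICI library and the highest Scop library thus differed by little. Of all genes tested, 2.63% did not overlap with ICI higher, and 1 of 28 collagens is near that share. No tested collagen lay wholly below Scop in ICI, where 4.36% of all genes did. These values rest on 190 to 263 recovered fragments per ICI library and 59 to 191 per Scop library. The log2 fold change was 0.20 (SE 0.11, limma adjusted p = 0.493) on the scale of log2(FPKM + 1), which understates low genes, and 0.58 by limma-voom on fragments (adjusted p = 0.437). With Scop replicate 3 left out, Col24a1 was still the 1 collagen that did not overlap, where 3.97% of all genes did likewise with ICI higher and 9.62% with ICI lower, and the log2 fold change was 0.10 (limma adjusted p = 0.623).

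Col3a1, the chain of type III collagen, a minor fibrillar collagen of the healthy corneal stroma (chromosome 1, 45311538 to 45349706), was singled out after its values were seen. It stood at 1.58, 1.90, 1.47 and 1.68 FPKM in ICI replicates 1 to 4 and at 4.31, 1.90, 1.64 and 1.91 FPKM in Scop replicates 1 to 4. Scop replicate 1 stood at 2.26 times the mean of Scop replicates 2 and 4, and the other Scop libraries overlapped with ICI. The log2 fold change was -0.31 (SE 0.19, limma adjusted p = 0.550) and -0.42 without Scop replicate 3 (limma adjusted p = 0.364), the smallest adjusted p of a collagen in that fit. Without Scop replicate 1 it was -0.083 (limma adjusted p = 0.724). The remaining tested fibrillar genes, Col27a1, Col11a1 and Col5a3, averaged between 0.878 and 1.35 FPKM over all libraries. Of the 9 fibrillar genes tested, 7 had a positive log2 fold change and 2 a negative one (median 0.20), and 6 and 3 without Scop replicate 3 (median 0.046).

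**Figure D1:**
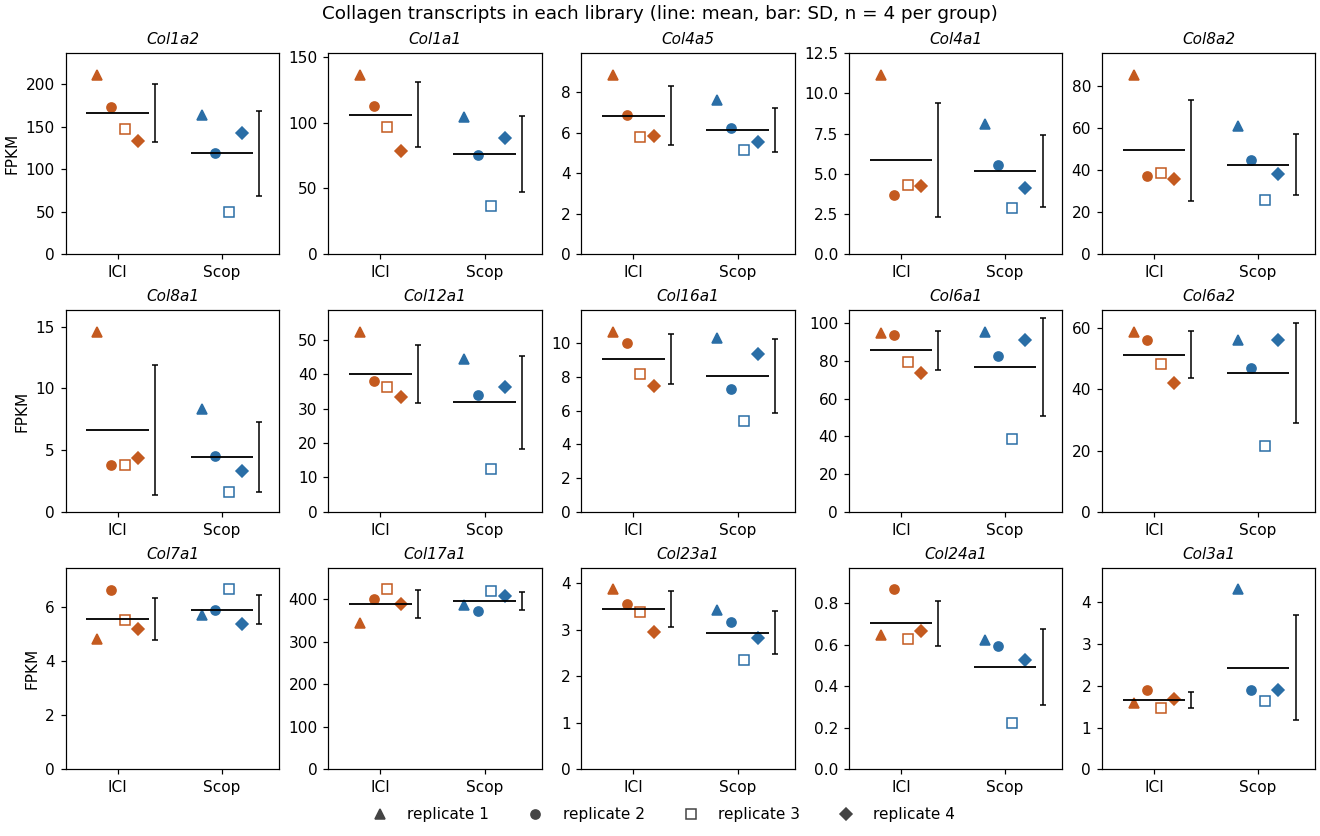
FPKM of the 15 collagen genes described library by library, 1 panel a gene, with ICI at the left and Scop at the right of each panel; symbols give the replicate number, lines the mean and bars the SD (n = 4 per group). Scop replicate 3 is the lowest library for Col1a2, at 49.3 FPKM, and for Col6a1, at 38.3 FPKM, ICI replicate 1 is the highest for Col4a1, Col8a1 and Col8a2, and Col17a1 stays between 344 and 423 FPKM.

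The FACIT collagens, which lie on fibril surfaces, were led by Col12a1 (chromosome 9, 79598987 to 79721141). It stood at 52.4, 38.2, 36.4 and 33.5 FPKM in ICI replicates 1 to 4 and at 44.5, 34.1, 12.6 and 36.3 FPKM in Scop replicates 1 to 4. Scop replicate 3 was again the lowest library, and the other 3 Scop libraries lay within the ICI range. It had a log2 fold change of 0.43 (SE 0.32, limma adjusted p = 0.618) and 0.054 without Scop replicate 3. Col16a1, a FACIT member found near basement membranes and small fibrils, stood at 10.7, 9.99, 8.18 and 7.49 FPKM in ICI replicates 1 to 4 and at 10.3, 7.28, 5.39 and 9.34 FPKM in Scop replicates 1 to 4. Its groups overlapped, with a log2 fold change of 0.17 (SE 0.17, limma adjusted p = 0.713) and 0.016 without Scop replicate 3. The other tested FACIT genes, Col20a1 and Col14a1, averaged 0.943 and 0.707 FPKM over all libraries. Their log2 fold changes were 0.088 and -0.028, and 0.077 and -0.17 without Scop replicate 3.

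The type VI chains, which form beaded filaments between the fibrils, gave 3 tested genes with positive log2 fold changes that did not keep one sign without Scop replicate 3. Col6a1 (chromosome 10, 76708792 to 76726044) stood at 94.9, 93.9, 79.6 and 73.6 FPKM in ICI replicates 1 to 4 and at 95.3, 82.6, 38.3 and 90.8 FPKM in Scop replicates 1 to 4. Scop replicate 3 alone lay below the ICI range. Col6a2, which lies 85161 bases away on the same strand of chromosome 10, stood at 58.8, 56.2, 48.3 and 42.0 FPKM in ICI replicates 1 to 4 and at 56.1, 47.0, 21.6 and 56.3 FPKM in Scop replicates 1 to 4. It had the same low library. Col6a1 had a log2 fold change of 0.23 (SE 0.25, limma adjusted p = 0.742) and Col6a2 one of 0.26 (SE 0.26, limma adjusted p = 0.724). Without Scop replicate 3 the log2 fold changes were -0.072 and -0.056 in that order. Col6a3, the largest of these chains, averaged 27.6 ± 3.51 FPKM in ICI and 21.8 ± 8.56 FPKM in Scop (SD, n = 4 each), with a log2 fold change of 0.42, and 0.076 without Scop replicate 3.

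The type IV chains of basement membranes varied widely within each group. Col4a5 (chromosome X, 141475370 to 141689236), a chain of the networks that hold α3 or α6 chains, was the most abundant. It stood at 8.86, 6.88, 5.77 and 5.85 FPKM in ICI replicates 1 to 4 and at 7.59, 6.22, 5.16 and 5.55 FPKM in Scop replicates 1 to 4. The replicate 1 library was the highest in each group and the groups overlapped, with a log2 fold change of 0.13 (SE 0.14, limma adjusted p = 0.728) and 0.065 without Scop replicate 3. Col4a1 stood at 11.2, 3.72, 4.30 and 4.27 FPKM in ICI replicates 1 to 4 and at 8.13, 5.57, 2.91 and 4.14 FPKM in Scop replicates 1 to 4. ICI replicate 1 was at 2.73 times the mean of the other ICI libraries, and without it the ICI range lay inside the Scop range. The log2 fold change of Col4a1 was 0.10 (SE 0.32, limma adjusted p = 0.916), -0.093 without Scop replicate 3 and -0.21 without ICI replicate 1. All 6 type IV genes passed the minimum level, and all 6 had a positive log2 fold change (median 0.23, largest 0.51 for Col4a3). Without Scop replicate 3, 5 of 6 were positive (median 0.11), and without ICI replicate 1, 4 of 6 were (median 0.024).

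Type VIII collagen, the main short-chain network collagen of Descemet's membrane, followed the type IV pattern. Col8a2 (chromosome 4, 126286794 to 126314330), whose human counterpart is mutated in some forms of endothelial dystrophy, stood at 85.4, 37.2, 38.8 and 35.9 FPKM in ICI replicates 1 to 4. In Scop replicates 1 to 4 it stood at 60.7, 44.9, 25.9 and 38.3 FPKM. ICI replicate 1 was the highest of all libraries, and the other 3 ICI libraries lay within the Scop range. Col8a1 stood at 14.6, 3.84, 3.81 and 4.33 FPKM in ICI replicates 1 to 4 and at 8.32, 4.50, 1.599 and 3.30 FPKM in Scop replicates 1 to 4. It had the same highest library. Col8a2 had a log2 fold change of 0.17 (SE 0.30, limma adjusted p = 0.845) and Col8a1 one of 0.44 (SE 0.44, limma adjusted p = 0.718). These values were -0.037 and 0.13 without Scop replicate 3, and without ICI replicate 1 they were -0.12 and 0.026.

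The epithelial members Col17a1 and Col7a1 were not low in Scop replicate 3 and not high in ICI replicate 1. Col17a1, the hemidesmosome collagen (chromosome 19, 47646341 to 47692042), stood at 344, 400, 423 and 389 FPKM in ICI replicates 1 to 4 and at 386, 373, 419 and 408 FPKM in Scop replicates 1 to 4. All 4 Scop libraries lay within the ICI range, and Scop replicate 3 was the highest of Scop. The mean was 389 ± 33.0 FPKM in ICI and 396 ± 20.9 FPKM in Scop (SD, n = 4 each), a log2 fold change of -0.028 (SE 0.068, limma adjusted p = 0.891). Col7a1, the anchoring fibril collagen (chromosome 9, 108953586 to 108984875), stood at 4.83, 6.62, 5.52 and 5.19 FPKM in ICI replicates 1 to 4 and at 5.69, 5.89, 6.64 and 5.38 FPKM in Scop replicates 1 to 4. Its groups overlapped, with a log2 fold change of -0.081 (SE 0.093, limma adjusted p = 0.756). Without Scop replicate 3 the log2 fold changes were -0.0016 for Col17a1 and -0.031 for Col7a1. Col23a1, another transmembrane collagen, stood at 3.87, 3.56, 3.39 and 2.95 FPKM in ICI replicates 1 to 4 and at 3.42, 3.16, 2.35 and 2.83 FPKM in Scop replicates 1 to 4. Its groups overlapped, with a log2 fold change of 0.18 (SE 0.10, limma adjusted p = 0.523) and 0.10 without Scop replicate 3. The third tested gene of this class, Col13a1, averaged 2.36 ± 0.275 FPKM in ICI and 1.92 ± 0.805 FPKM in Scop (SD, n = 4 each), with a log2 fold change of 0.25, and 0.036 without Scop replicate 3.

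The 16 collagens that were not tested reached at most 0.550 FPKM in any library. They include the cartilage collagens Col2a1, Col9a1, Col9a2, Col9a3, Col10a1 and Col11a2, both multiplexins, Col15a1 and Col18a1, which lie at basement membranes, and the type VI chains Col6a4, Col6a5 and Col6a6. The others are Col19a1, Col22a1, Col25a1, Col26a1 and Col28a1. None of the 44 genes was at 0 in every library, but Col10a1, Col19a1, Col22a1 and Col26a1 each had a single recovered fragment over all 8 libraries. Col18a1, the precursor of endostatin, stood at 0.243, 0.235, 0.1295 and 0.139 FPKM in ICI replicates 1 to 4 and at 0.261, 0.372, 0.379 and 0.243 FPKM in Scop replicates 1 to 4. Its groups did not overlap in FPKM, but the gap was below 0.001 FPKM, and its 39 to 73 fragments per ICI library overlapped the 67 to 112 per Scop library. With no minimum level it had a log2 fold change of -0.15 and a limma adjusted p of 0.453 (unadjusted 0.019).

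Over the 28 genes tested, 23 log2 fold changes were positive, where 44.6% of all genes were, and the median was 0.19, where that of all genes was -0.015. Without Scop replicate 3, 18 of 28 were positive, where 39.7% of all genes were, and the median was 0.041, where that of all genes was -0.029. In that comparison 0 of 28 collagens passed the adjusted threshold, with a background of 0.0% higher and 0.00824% lower in ICI, and 0 passed an unadjusted p under 0.05, with a background of 4.21% higher and 9.98% lower. Medians by class were 0.13 for FACIT genes, 0.26 for type VI, 0.31 for short-chain and 0.18 for transmembrane genes over all libraries, and 0.035, -0.056, 0.048 and 0.036 without Scop replicate 3.

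**Figure D2:**
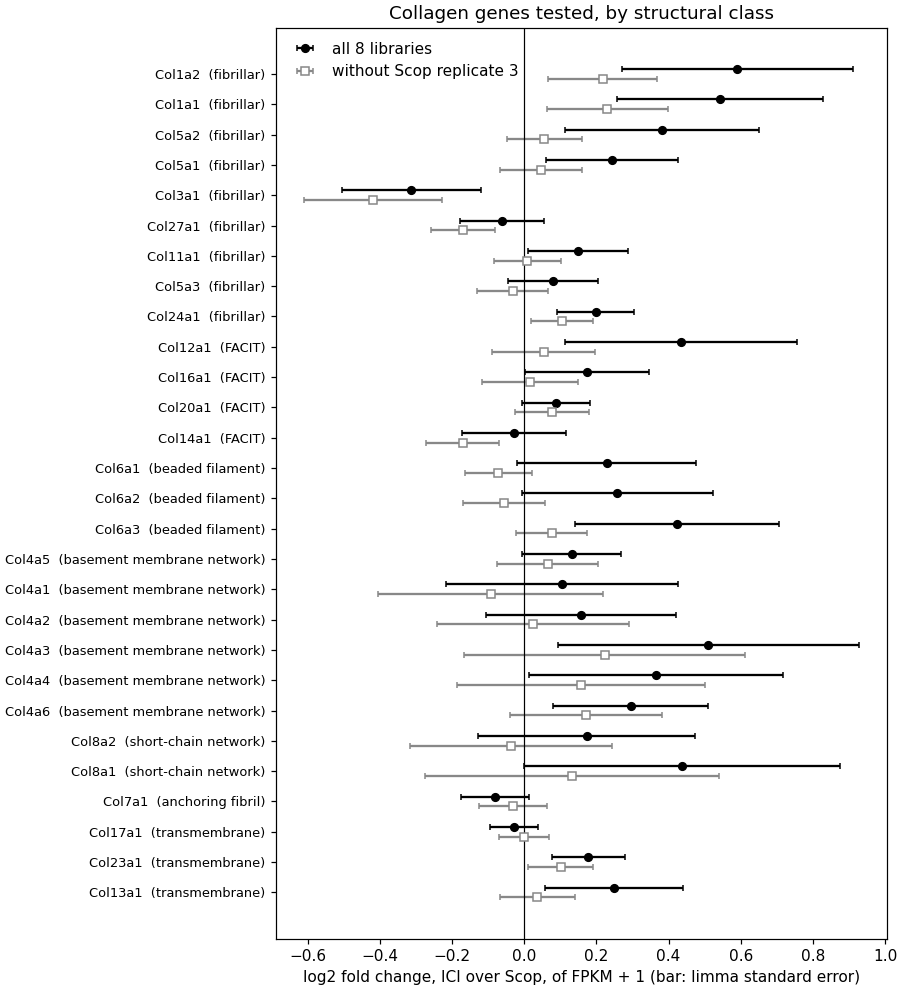
Log2 fold change of FPKM + 1, ICI over Scop, for the 28 collagen genes tested, grouped by structural class; black circles use all 8 libraries, grey squares leave out Scop replicate 3, and bars are limma standard errors. Col1a2 lies at 0.59 with all libraries and at 0.22 without Scop replicate 3, Col3a1 is lowest in both, and 18 of the 28 grey squares lie above 0.

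Within the groups, Scop replicate 3 and ICI replicate 1 stood apart for many collagens. In Scop replicate 3, 16 of the 28 collagens stood below 0.5 times the mean of the other Scop libraries, where 4.41% of all genes tested did so, and the median ratio was 0.442, where that of all genes was 0.950. The 16 held Col1a1, Col1a2, Col5a2, Col5a3, Col11a1 and Col24a1 of the fibrillar class, all 3 tested type VI chains, Col12a1 and Col14a1, Col13a1, and Col4a1, Col4a3, Col4a4 and Col8a1. The lowest ratios of the 28 were 0.259 for Col4a3 and 0.297 for Col8a1. Kera, Lum and Dcn, proteoglycans of the same stroma, had ratios of 0.227, 0.297 and 0.335 in that library. Col17a1 and Col7a1 had ratios of 1.08 and 1.18, and Col20a1 had 0.926. The part of the lower keratocyte transcripts in these values was not tested. The summed keratocyte markers were lowest in Scop replicate 3, so a fit with a keratocyte score as a covariate cannot separate them from that library. In that fit the median log2 fold change of the 28 genes was 0.039, where that of all genes was -0.029. Of the 28, 0 passed the adjusted threshold, where 0 of all 12100 genes passed as higher and 1 as lower in ICI.

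In ICI replicate 1, Col4a1, Col4a2, Col4a3, Col4a4, Col4a6, Col8a1 and Col8a2 exceeded 1.5 times the mean of the other ICI libraries, 7 of 28, where 2.94% of all genes did so. Col8a1 had the highest ratio, 3.65. Col4a1, Col4a3, Col4a4 and Col8a1 were also among the 16 below 0.5 in Scop replicate 3. In Scop replicate 1, 7 of 28 also exceeded 1.5 times the mean of Scop replicates 2 and 4, where 2.75% of all genes did so. They were Col4a1 to Col4a4, Col8a1, Col3a1 and Col20a1. Thus Col4a1, Col4a2, Col4a3, Col4a4 and Col8a1 were high in the replicate 1 library of both groups, 5 of 28, where 0.868% of all genes were. The replicate 1 libraries were taken up with these values in view, so the shares are descriptions and not tests.

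Some markers of the corneal endothelium were also high in ICI replicate 1. Slc4a11, a transporter of that cell layer, stood at 41.4, 14.8, 15.5 and 16.1 FPKM in ICI replicates 1 to 4 and at 22.6, 19.4, 9.65 and 12.1 FPKM in Scop replicates 1 to 4. ICI replicate 1 was its highest library by a wide margin. The summed FPKM of 6 endothelial markers was 362 to 561 in ICI and 290 to 457 in Scop, the maximum of each group lay in replicate 1, and none of the 6 was at 0 in all libraries. Of the 5 endothelial markers tested, 3 exceeded 1.5 times the other ICI libraries in ICI replicate 1. Of 5 markers of myofibroblasts and smooth muscle, the 2 tested, Tagln and Acta2, also stood highest in ICI replicate 1, at 3.99 and 1.77 FPKM. Acta2 was at 1.76 FPKM in Scop replicate 3. Among the markers not tested, Myh11 was highest in ICI replicate 1 at 0.434 FPKM. Des and Cnn1 were not, at 0.0166 and 0 FPKM there. The part of these transcripts in the collagen values was not tested. A fit with Slc4a11 as a covariate was added after the values were seen. Slc4a11, Col4a1 and Col8a1 all stood highest in ICI replicate 1, so this fit cannot separate the part of Slc4a11 from that library. In it Col4a1 had a log2 fold change of -0.25 (limma adjusted p = 0.252) and Col8a1 one of -0.036.

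**Figure D3:**
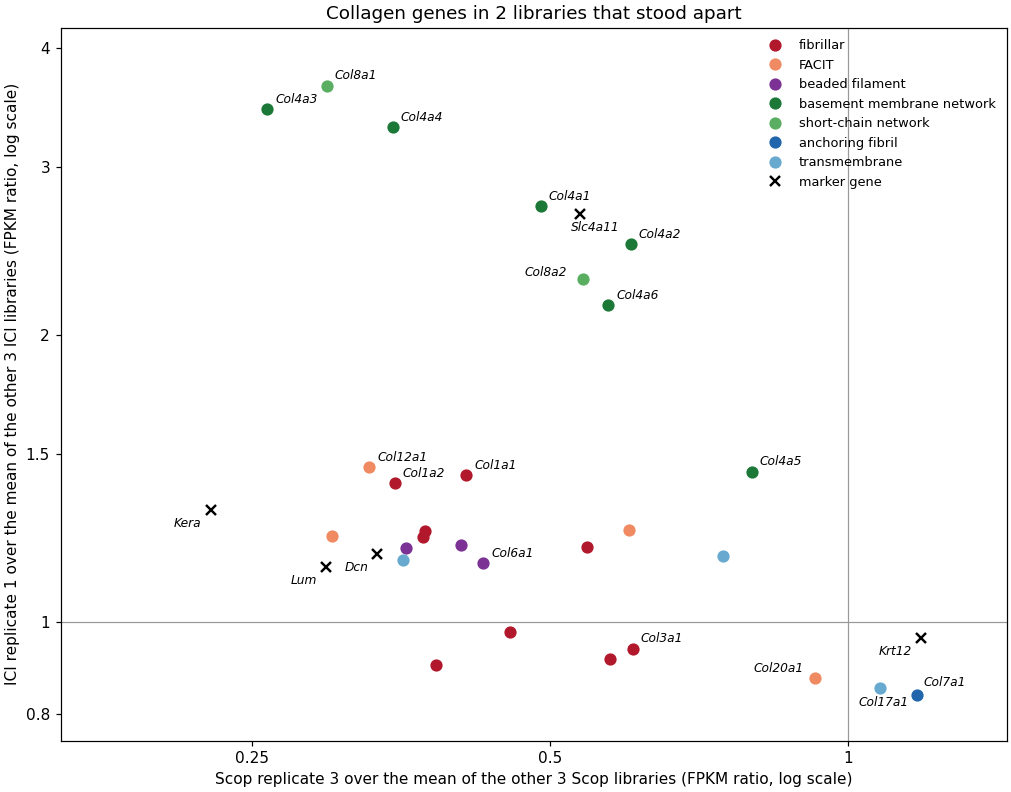
Ratio of ICI replicate 1 to the mean of the other ICI libraries (vertical, log scale) against the ratio of Scop replicate 3 to the mean of the other Scop libraries (horizontal, log scale) for the 28 collagens tested, coloured by class, with marker genes as crosses; grey lines mark a ratio of 1. The 7 type IV and VIII genes above 1.5 lie at the top with Slc4a11, Col4a3 and Col8a1 are also the farthest left of the collagens, and Col17a1 and Col7a1 lie near Krt12 at the right.

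Ratios between chains of the same library show how closely the chains moved together. All 10 ratios chosen were compared between groups by a two-sided exact permutation test of mean log2 ratios, with Benjamini-Hochberg adjustment over the 10. Each FPKM ratio compares levels per length. Col6a1 over Col6a2 was the steadiest, between 1.61 and 1.75 in ICI and between 1.61 and 1.78 in Scop, a 1.10-fold span where Col6a1 itself spanned 2.49-fold. Col1a1 over Col1a2 averaged 0.636 ± 0.032 in ICI and 0.658 ± 0.058 in Scop (SD, n = 4 each). By the lengths behind the deposited values, the α2 transcript was the more abundant per length, although type I collagen holds 2 α1 chains and 1 α2 chain. Those lengths work out at 5246 bases for Col1a2 and 5957 for Col1a1, where GENCODE gives 12426 and 6563 exon bases. This order thus rests on the length used. Col4a1 over Col4a2, the pair that starts head to head, spanned 1.33-fold, from 1.14 to 1.39 in ICI and from 1.18 to 1.52 in Scop, where the chains spanned 3.84-fold and 3.24-fold. Col4a3 and Col4a4, whose starts lie 72 bases apart on chromosome 1, kept a ratio between 1.23 and 1.85 in ICI and between 1.04 and 1.42 in Scop, where the chains spanned 10.8-fold and 7.51-fold. Col4a5 over Col4a6, whose starts lie 1309 bases apart on chromosome X, spanned 2.07-fold, and its lowest value, 1.90, was that of ICI replicate 1. Col8a1 over Col8a2 spanned 2.76-fold and was highest, 0.171, in ICI replicate 1.

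Only the ratio of Col3a1 to Col1a1 did not overlap between groups. It was 0.0116, 0.0169, 0.0152 and 0.0215 in ICI replicates 1 to 4 and 0.0415, 0.0252, 0.0447 and 0.0217 in Scop replicates 1 to 4. Scop replicates 1 and 3 were the highest, and Scop replicate 4 lay just above the highest ICI library. The mean log2 ratio differed by -0.995 (exact permutation p = 0.0286, the smallest that 4 against 4 allows, adjusted p = 0.286 over the 10 ratios). It thus did not pass after adjustment. High Col3a1 in Scop replicate 1 and low Col1a1 in Scop replicate 3 both enter it, and the difference was -0.87 without Scop replicate 1 and -0.83 without Scop replicate 3. The other 9 ratios had exact permutation p-values between 0.114 and 0.629.

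**Figure D4:**
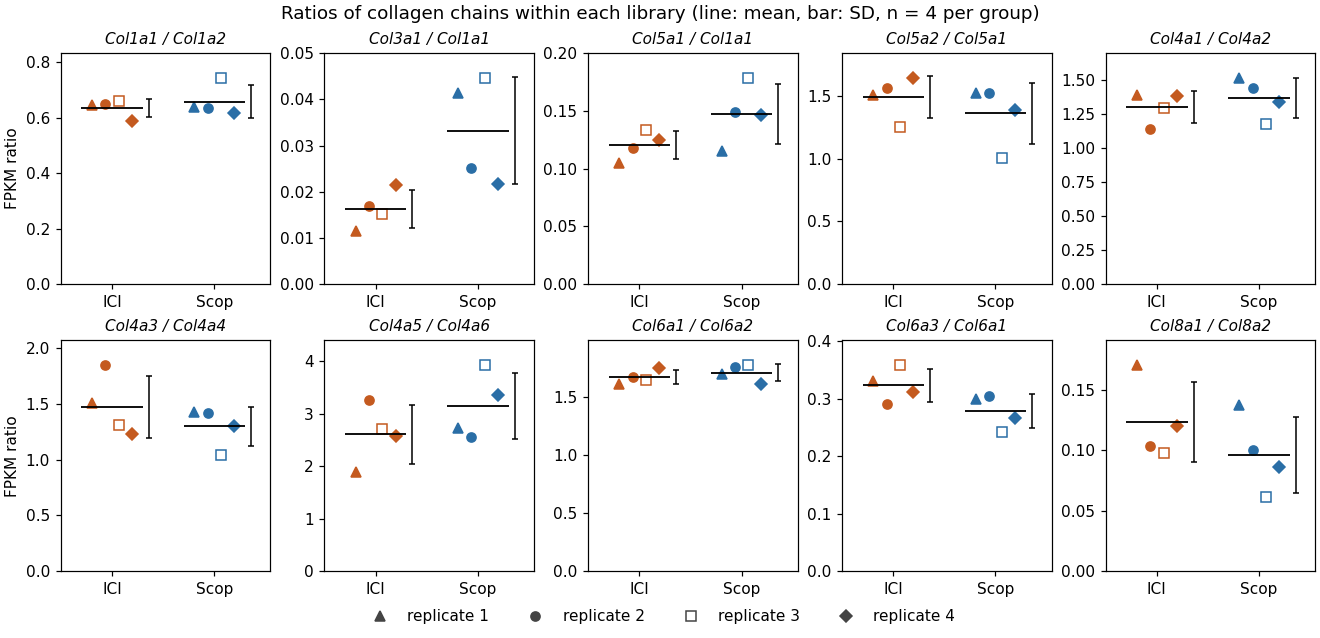
FPKM ratios of 10 pairs of collagen chains in each library, 1 panel a pair, with ICI at the left and Scop at the right; symbols give the replicate number, lines the mean and bars the SD (n = 4 per group). Col6a1 over Col6a2 stays between 1.61 and 1.78, and Col3a1 over Col1a1 lies at 0.0116 to 0.0215 in ICI and at 0.0217 to 0.0447 in Scop.

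Genes that modify, fold, process and cross-link collagen were read from the same fit. Of 36 such genes, 30 were tested, and 0 passed in either direction at an adjusted p under 0.05 (smallest 0.342, limma). By the unadjusted p, 1 of 30 was higher and 0 were lower (background 4.56% and 7.46%), and the median log2 fold change was 0.084, and -0.018 without Scop replicate 3. The gene higher in ICI was P4ha2, a subunit of the prolyl 4-hydroxylase that stabilises the triple helix. It stood at 4.47, 3.47, 5.21 and 4.40 FPKM in ICI replicates 1 to 4 and at 3.82, 3.63, 3.14 and 3.17 FPKM in Scop replicates 1 to 4. ICI replicate 2 lay within the Scop range, and the log2 fold change was 0.27 (SE 0.10, limma adjusted p = 0.342) and 0.24 without Scop replicate 3. P4ha1, the related subunit, averaged 9.39 ± 1.59 FPKM in ICI and 8.01 ± 1.31 FPKM in Scop (SD, n = 4 each). Its log2 fold change was 0.205, and 0.10 without Scop replicate 3.

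Serpinh1, the collagen chaperone Hsp47, stood at 50.02, 33.7, 36.9 and 34.1 FPKM in ICI replicates 1 to 4 and at 60.5, 43.6, 27.4 and 60.2 FPKM in Scop replicates 1 to 4. Scop replicates 1 and 4 were the highest and Scop replicate 3 the lowest of all libraries. The log2 fold change was -0.25 (SE 0.23, limma adjusted p = 0.688) and -0.49 without Scop replicate 3 (limma adjusted p = 0.206), opposite in sign to those of the type I chains. Without that library, Serpinh1 and Creb3l1, a transcription factor of collagen-secreting cells, had an unadjusted p under 0.05, 2 of 30, where 9.98% of all genes were lower by that rule. Pcolce, which enhances cleavage of the procollagen C-terminal propeptide, averaged 48.7 ± 4.10 FPKM in ICI and 41.4 ± 8.87 FPKM in Scop. Sparc, a collagen-binding matrix protein, averaged 151 ± 27.8 FPKM in ICI and 119 ± 35.7 FPKM in Scop. Lox, which oxidises lysines for cross-links, averaged 4.59 ± 1.33 FPKM in ICI and 4.09 ± 0.907 FPKM in Scop (SD, n = 4 each). Tll1, a protease of procollagen propeptides, averaged 0.824 ± 0.167 FPKM in ICI and 1.06 ± 0.186 FPKM in Scop. None of these 4 passed, with limma adjusted p-values between 0.516 and 0.801. In the order Pcolce, Sparc, Lox and Tll1, the log2 fold changes were 0.25, 0.38, 0.13 and -0.17. Without Scop replicate 3 they were 0.088, 0.14, -0.0056 and -0.18. Plod2, a lysyl hydroxylase, was not tested, at up to 0.5003 FPKM.

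Of 11 collagen receptors, 7 were tested, and 0 passed an adjusted or an unadjusted p under 0.05 in either direction by limma (smallest adjusted p 0.668). The background was 0.0% of all genes in each direction adjusted, and 4.56% higher and 7.46% lower unadjusted. The median log2 fold change was 0.068, and -0.016 without Scop replicate 3. Itgb1, the β1 integrin subunit shared by the collagen-binding integrins, averaged 59.1 ± 1.65 FPKM in ICI and 56.5 ± 6.02 FPKM in Scop. Itga11, the α subunit of a fibroblast collagen integrin, averaged 2.68 ± 0.336 FPKM in ICI and 2.32 ± 0.816 FPKM in Scop. Ddr1, a collagen-binding receptor tyrosine kinase, averaged 23.7 ± 1.51 FPKM in ICI and 23.8 ± 2.09 FPKM in Scop. Mrc2, an uptake receptor for collagen, averaged 10.7 ± 1.15 FPKM in ICI and 9.92 ± 2.45 FPKM in Scop. Cd44, a matrix receptor that also binds hyaluronan, averaged 103 ± 7.49 FPKM in ICI and 108 ± 4.69 FPKM in Scop (SD, n = 4 each). Every one of these means differed by less than the larger SD of its 2 groups. In the order Itgb1, Itga11, Ddr1, Mrc2 and Cd44, the log2 fold changes were 0.068, 0.19, -0.0075, 0.13 and -0.071. Without Scop replicate 3 they were 0.0038, -0.016, 0.050, -0.056 and -0.098. Gp6, the platelet collagen receptor, was at 0 in all 8 libraries.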

How the data were processed

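RNA-seq values came from 8 pooled cornea samples, 4 ICI and 4 Scop, grouped and numbered by their titles in the labels. Per the labels' protocols, a Vazyme VAHTS kit was used for the libraries, with sequencing on a NovaSeq of Illumina. The tools named are HISAT2, HTSeq and fastp, with build mm10, per the submitters' processing notes. Their versions, roles, annotation and strandedness are not stated in the sources used here. Reads of overlapping antisense genes may therefore not have been told apart, and 5.65% of the exon bases of Col4a3 overlap C430014B12Rik.

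The authors deposited FPKM values, with no scaling between samples stated. Whole fragments were recovered from the FPKM steps for 99.76% of genes (ratios read as fractions within a relative tolerance of 5e-13, values whole within 0.01), and none for 57 genes. Totals lay between 34354346 and 39885822 per library. Counting error is thus small for all but the low genes.

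Log2(FPKM + 1) of genes averaging 0.5 FPKM or more was fitted in R 4.3.3 with limma 3.58.1, using lmFit and then eBayes with a variance trend, two-sided, with Benjamini-Hochberg adjustment over all 12100 genes and a threshold of 0.05. The fit was tested on simulated data with known changes, the same dispersion for every gene and no outlying library. That simulation cannot tell how the fit behaves with libraries that stand apart, such as those here. Chain ratios were compared by exact permutation in Python 3.11.15 with SciPy 1.17.1. Alternatives were a pseudocount of 0.1, no minimum and a minimum of 5 FPKM, median-ratio scaling, eBayes without trend, a replicate block, limma-voom on fragments, a keratocyte score as a covariate and leaving out each library. Added after the data were seen were leaving out both replicate 1 libraries, these with Scop replicate 3, and Slc4a11 as a covariate.

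The members and lists were chosen with earlier results of these data known. Genes given library by library were the 2 most abundant tested members of each structural class and any tested member whose groups did not overlap or whose unadjusted p was under 0.05. From the biosynthesis and receptor lists, the 4 tested genes with the smallest p and a set of known enzymes and receptors were named. Of these, P4ha2 and Serpinh1 were given library by library, Plod2 by its highest value and the others as group means. Col3a1, Creb3l1 and Col18a1 fall outside this rule and were picked with their values in view. No pair of libraries within a group differed by sampling noise alone (lowest chi-square per degree of freedom 13.2). Promoter windows and gene positions are from RefSeq on GRCm38.p6. Distances between neighbouring collagen genes or their starts, and exon overlaps, are from the GENCODE annotation, whose gene ends can differ from those of RefSeq.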

Additional observations from a re-analysis of the deposited data

Results flagged for a closer look

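In the search for outlying libraries, a value was taken up where the gap to its nearest neighbour as a share of its group's range exceeded Dixon's 95% critical value for 4 samples. The 28 tested collagens gave 56 groups of 4 libraries, and chance takes up about 1 in 20 groups. It took up 10 values, of which 7 were high values in ICI replicate 1. These were Col4a1 at 11.2 FPKM (other ICI libraries 3.72 to 4.30), Col4a2 at 8.03 FPKM (3.09 to 3.31), Col4a3 at 9.55 FPKM (2.49 to 3.14) and Col4a4 at 6.36 FPKM (1.70 to 2.04). The same library had Col4a6 at 4.66 FPKM (2.11 to 2.26), Col8a1 at 14.6 FPKM (3.81 to 4.33) and Col8a2 at 85.4 FPKM (35.9 to 38.8). All 7 encode chains of type IV or type VIII collagen, and Slc4a11 also stood highest there, at 41.4 FPKM. Col24a1 was high in ICI replicate 2 at 0.867 FPKM, where the other ICI libraries stood at 0.630 to 0.669 FPKM. Col3a1 was high in Scop replicate 1 at 4.31 FPKM, where the other Scop libraries stood at 1.64 to 1.91 FPKM. Col5a2 was low in Scop replicate 3 at 6.60 FPKM, where the other Scop libraries stood at 17.0 to 18.4 FPKM.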

How the results depend on the processing

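Under all 19 alternatives to the limma fit, 0 collagen, biosynthesis or receptor genes passed the adjusted threshold. Few of all genes did: the most were 4 higher and 2 lower in ICI, of 12121 tested, without Scop replicate 4. The collagen median log2 fold change stayed positive, between 0.033 and 0.31. Counts at an unadjusted p under 0.05 did move. With the replicate block, 5 collagens (Col1a1, Col1a2, Col4a3, Col4a6 and Col8a1) and 4 biosynthesis genes were higher in ICI, as were 5.31% of all genes tested. Same-numbered libraries had correlations of deviations of 0.29, -0.0093, 0.14 and 0.077 for replicates 1 to 4. ICI replicate 1 and Scop replicate 1 each correlated best with the other. Of the rest, only ICI replicate 3 correlated best with its own number. These few values cannot settle whether the replicate numbers pair the libraries. With no minimum, 1 collagen was lower and 1 receptor higher, as were 4.79% and 3.78% of all genes. With the keratocyte score, 1 collagen was higher, and 2 collagens and 2 biosynthesis genes were lower, where 4.36% of all genes were higher and 9.78% lower. With Slc4a11 as a covariate, 1 collagen (Col4a1) and 1 biosynthesis gene were lower, and 0 biosynthesis genes were higher, as with a minimum of 5 FPKM (of all genes, 9.36% lower and 4.3% higher with the covariate, 4.37% higher with that minimum). With both replicate 1 libraries and Scop replicate 3 left out, 0 biosynthesis genes were higher and 2 lower (4.6% and 8.04% of all genes). Leaving out 1 library at a time gave 0 to 3 collagens higher (3 without Scop replicate 1), 0 to 4 biosynthesis genes higher and 0 to 2 lower, where 3.36% to 5.51% of all genes were higher (5.51% without Scop replicate 1) and 5.11% to 9.98% lower. With a pseudocount of 0.1, Col4a3 had the highest collagen log2 fold change, 0.70, and Col1a2 had 0.60.

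Several log2 fold changes changed sign, and the cause was not tested. With the keratocyte score, Col4a1 was at -0.12, Col8a2 at -0.070, Col16a1 at -0.011, Col6a1 at -0.075, Col6a2 at -0.064, Col17a1 at 0.0017, Itga11 at -0.011, Itgb1 at -0.0024, Mrc2 at -0.056, Lox at -0.037 and Ddr1 at 0.050. With Slc4a11 as a covariate, Col4a1 was at -0.25, Col8a2 at -0.15, Col8a1 at -0.036, Col17a1 at 0.029, Lox at -0.021 and Ddr1 at 0.039. With both replicate 1 libraries left out, Col4a1 was at -0.0005, Col17a1 at 0.017 and Cd44 at 0.0020. With Scop replicate 3 left out as well, Col4a1 was at -0.19, Col8a2 at -0.15, Col6a1 at -0.079, Col6a2 at -0.084, Col7a1 at 0.026, Col17a1 at 0.051, Itga11 at -0.079, Mrc2 at -0.10, Lox at -0.095 and Ddr1 at 0.069. With median-ratio scaling, Ddr1 was at 0.0025. Leaving out 1 library at a time gave ranges of -0.21 to 0.31 for Col4a1, -0.12 to 0.36 for Col8a2, -0.072 to 0.36 for Col6a1, -0.056 to 0.39 for Col6a2, -0.069 to 0.029 for Col17a1, -0.016 to 0.28 for Itga11, -0.056 to 0.20 for Mrc2, -0.016 to 0.22 for Lox and -0.040 to 0.050 for Ddr1. The log2 ratio of Col1a1 to Col1a2 ranged from -0.076 to 0.014. With 4 libraries a group, and 1 or 2 of them apart from the rest, no collagen gene or chain ratio passed an adjusted p under 0.05.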
